A study of Homo sapiens with 2 samples.

Results

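Keratins are the intermediate filament proteins of epithelial cells, and 44 genes of this family were followed on both arrays of the series. The members were the genes whose symbol in GEO's annotation of the platform is KRT followed by digits, with or without a final letter, and without pseudogenes, and they were read on all 56 probe sets paired with exactly 1 such gene, out of 19775 genes and 41091 probe sets paired with 1 gene. RNA came from KYSE170-luc, a human esophageal squamous carcinoma line whose suffix stands for luciferase in the series title. Cells in culture plates received either an empty vector or a SOX17 expression plasmid, and RNA was taken 12 h later; both groups carry luciferase, as far as the line's name tells. With 1 array per group there was no replicate, so each difference is between these 2 arrays, carries no p-value, and cannot be set against the spread between cultures. Transfection efficiency, the vector's promoter and whether the line is 1 clone are not given in the sources used here.

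A keratin filament is built from pairs of 1 acidic (type I) and 1 basic or neutral (type II) keratin, so the genes of both types are used together. Which pair a cell makes follows its place in the epithelium: KRT5 and KRT14 mark the dividing basal layer of stratified epithelia, KRT4 and KRT13 the upper layers of the esophageal mucosa, KRT1 and KRT10 the upper layers of epidermis, KRT8 and KRT18 simple epithelia and many carcinomas, and a large set is made in hair, nail and the hair follicle. KRT16 belongs to the keratins of wounded and hyperproliferative epithelium. The comparison asks which of these transcripts differed after the introduction of SOX17, a transcription factor of endoderm and endothelium.

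Values are linear intensities as deposited. The floor below which a value was not used for a ratio was an intensity of 95, percentile 60 of the pooled values. For each gene the probe set of highest mean log2 intensity was used, and the gene was called measured when both readings of it reached the floor. Log2 ratios were formed as SOX17 over empty vector, so a value above 0 means a brighter signal with SOX17. Intensities of different probe sets depend on the probes and were not compared with each other.

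No measured keratin gene differed by 2-fold between the arrays. Of the 44 keratin genes 11 were measured on both arrays (50.7% of all genes were): KRT5, KRT14 and KRT15 of the basal layer, KRT16, KRT13 of the mucosa, KRT9, KRT10 and KRT80, and KRT7, KRT8 and KRT18 of simple epithelia. Of these 11, 0 were at least 2-fold higher and 0 at least 2-fold lower on the SOX17 array, where 0.419% and 0.329% of 10034 measured genes were (0.747% together). At 1.5-fold the numbers were again 0 and 0, against 3.78% and 3.19% of measured genes (6.97% together). At those shares fewer than 1 gene in 11 would be counted, so the keratin count is near the background. The log2 ratio was above 0 in 7 keratin genes and below 0 in 4, and above 0 in 54.6% and below 0 in 45.4% of all measured genes. The median log2 ratio of the 11 was 0.06, and that of all measured genes 0.03. The median size of the log2 ratio regardless of sign was 0.21 in keratin genes and 0.19 in all measured genes.

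**Figure D1:**
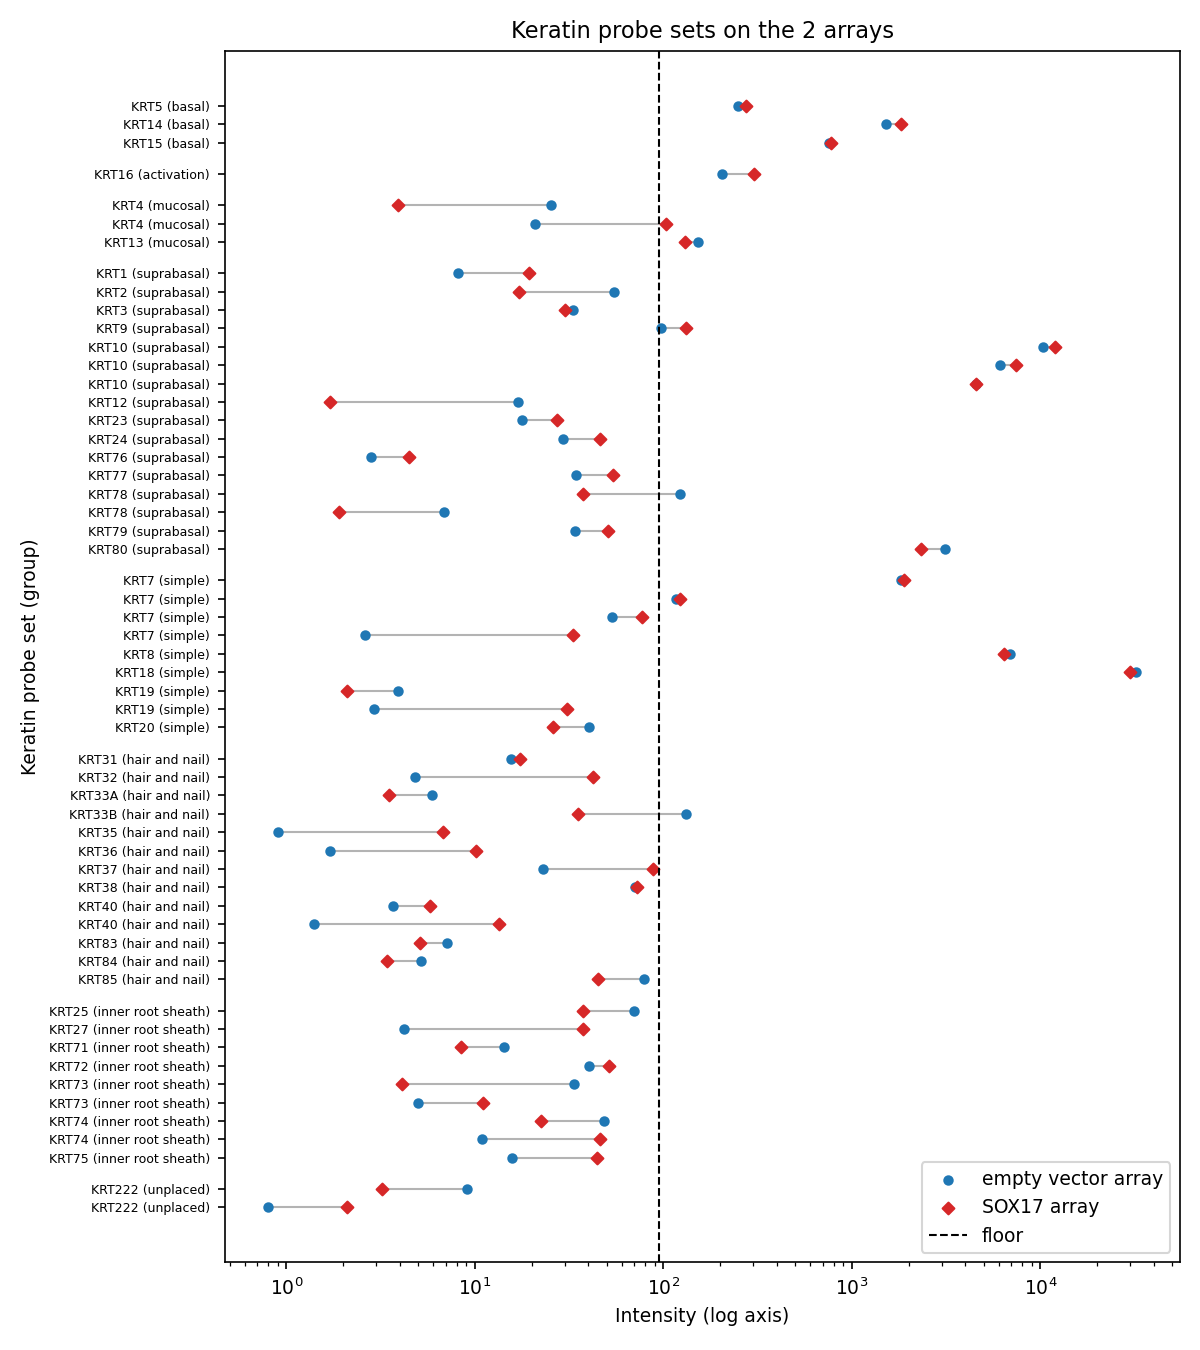
Intensity of each of the 56 keratin probe sets on the empty vector array (circles) and the SOX17 array (diamonds), on a log axis, grouped by where the keratin is known to be made; a line joins the values of 1 probe set. The 14 probe sets to the right of the dashed floor at 95 on both arrays have their pair of points close together, while hair, nail and inner root sheath keratins lie to its left, with the exception of KRT33B on the empty vector array.

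A measure of error came from genes with several measured probe sets, by the spread of the log2 ratios of their 2 brightest ones. Over 4574 such genes the SD of 1 log2 ratio was 0.27. By tertile of level it was 0.35 for dim genes, 0.26 for those between and 0.17 for bright ones. This error lies within the arrays and leaves out differences between cultures. Of the 11 measured keratin genes 6 had a ratio within 1 such SD of 0, and 10 within 2. The exception was KRT80, at -2.43 SD. A ratio as large as that of KRT80 was found in 7.20% of measured genes of the bright tertile. The SD of the log2 ratios of all measured genes was 0.32, above this error of 0.27. How many of all measured genes lay within 1 or 2 such SD was not counted, so the keratin counts have no background beside them. A single probe set carried the ratio in 9 of the 11 genes, so for these no second reading could be compared.

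**Figure D2:**
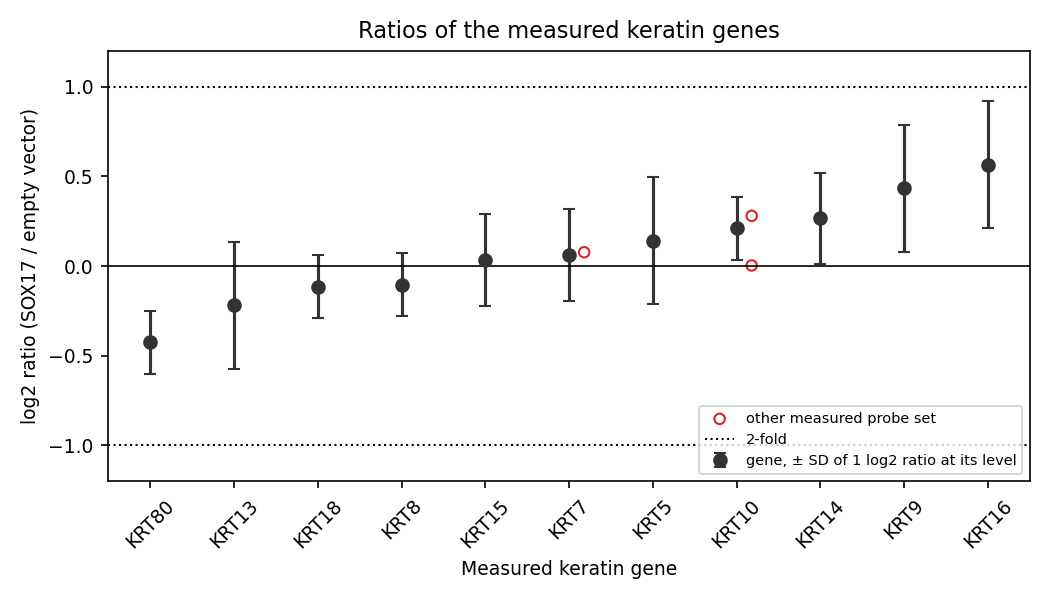
Log2 ratio (SOX17 over empty vector) for the 11 measured keratin genes (filled circles) with bars of ± 1 SD of a log2 ratio at the gene's tertile of level, and the ratios of further measured probe sets of the same gene (open circles); dotted lines mark 2-fold. The genes run from KRT80 at -0.42 to KRT16 at 0.56, and none reaches a dotted line.

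The promoters of measured keratin genes are shown because SOX17 is a DNA-binding factor, and the array reads the output of these genes. Of the 11 measured genes 4 had an entry in RefSeq's promoter table (build GRCh38.p14), and the 250 bases before each start site follow, read on the minus strand of chr12:52520395-52520644 for KRT5, chr12:52926470-52926719 for KRT8, chr17:41572060-41572309 for KRT9 and chr17:40822615-40822864 for KRT10, each 5′ to 3′. Capitals mark the SOX core motif ACAAT or its reverse complement ATTGT.
KRT5: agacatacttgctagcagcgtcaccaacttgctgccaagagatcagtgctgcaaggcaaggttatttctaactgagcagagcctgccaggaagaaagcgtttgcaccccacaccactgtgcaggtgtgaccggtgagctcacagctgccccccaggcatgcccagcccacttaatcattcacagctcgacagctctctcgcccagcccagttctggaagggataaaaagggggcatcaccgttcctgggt
KRT8: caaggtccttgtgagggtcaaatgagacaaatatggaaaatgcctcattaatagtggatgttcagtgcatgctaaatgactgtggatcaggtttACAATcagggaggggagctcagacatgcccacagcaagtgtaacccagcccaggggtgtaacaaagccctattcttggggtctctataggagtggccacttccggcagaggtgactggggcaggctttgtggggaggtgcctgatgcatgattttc
KRT9: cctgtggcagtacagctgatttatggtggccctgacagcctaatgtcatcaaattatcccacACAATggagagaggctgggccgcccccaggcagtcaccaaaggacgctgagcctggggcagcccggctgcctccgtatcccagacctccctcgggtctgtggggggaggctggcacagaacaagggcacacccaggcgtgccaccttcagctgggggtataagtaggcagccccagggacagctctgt
KRT10: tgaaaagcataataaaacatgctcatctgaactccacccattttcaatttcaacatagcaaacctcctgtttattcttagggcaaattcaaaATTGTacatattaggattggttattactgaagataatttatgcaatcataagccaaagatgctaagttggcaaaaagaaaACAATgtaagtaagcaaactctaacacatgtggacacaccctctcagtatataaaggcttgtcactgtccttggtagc
KRT5, with a log2 ratio of 0.14, held 0 matches. KRT8 (-0.10) held 1, beginning 156 bases before the start site. KRT9 (0.43) held 1, at 188 bases. KRT10 (0.21) held 2, at 158 and 78 bases. The SOX core was found in 7 of the 29 keratin genes that RefSeq's promoters cover (24.1%), and 24.6% of 35116 promoter windows of the same length did. The TATA box motif TATAAA, or its reverse complement TTTATA, was in 16 of the 29 (55.2%) and in 10.7% of all windows. In KRT10 it began 29 bases before the start. Of the 4 printed promoters that of KRT10 alone held both motifs, and there they shared 0 bases. A match describes the letters of this window and is no sign of binding, and SOX17 binding was not measured here.

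Among basal keratins all 3 members had a ratio above 0, each by less than 1.5-fold. Of all measured genes 54.6% lay above 0. KRT14, the type I keratin of basal cells, read 1509.7 with the empty vector and 1814.3 with SOX17, a log2 ratio of 0.27. KRT5, its type II partner, read 247.5 and 273 (0.14). KRT15, a second type I basal keratin that also marks epithelial progenitors, read 758.2 and 775.5 (0.03). KRT5 and KRT14 thus differed from each other by 0.12 on the log2 scale, within the error of 1 ratio in either tertile of level. Against the SD of 1 ratio at its level, the ratio of KRT14 was 1.04 times, that of KRT5 0.40 times and that of KRT15 0.13 times. The sign of KRT15 turned when the ratios were centred on the median of all measured genes.

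KRT16, the type I keratin induced in wounded and hyperproliferative squamous epithelium, had the highest ratio of the 11 measured keratins. It read 205.5 with the empty vector and 303.8 with SOX17 (1.48-fold higher, log2 ratio 0.56). As large a ratio in either direction was found in 7.89% of all measured genes and in 16.1% of the dim tertile of genes to which KRT16 belongs. The ratio is 1.59 times the SD of 1 ratio there, and it rests on 1 probe set. KRT16 lies between KRT14 and KRT17 in the RefSeq gene order. KRT17 and the type II keratins KRT6A, KRT6B and KRT6C, which are made with KRT16, were not analysed here. The annotation paired no probe set with any of them.

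The mucosal pair of the esophagus lay at the edge of detection. KRT13, the type I member, read 152.3 with the empty vector and 131 with SOX17 (-0.22), which is within the error at its level. KRT4, its type II partner, reached the floor with SOX17 alone. One of its probe sets read 20.9 and 103.4, and the other 25.2 and 3.9. Of these 4 values 1 reached the floor and none reached 2 times the floor (190), so no direction or fold is given.

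Of 13 keratins of other stratified epithelia 3 were measured. KRT80, a type II keratin found at cell margins near desmosomes, had the lowest ratio of the 11 measured keratins. It read 3120.7 with the empty vector and 2326 with SOX17, 1.34-fold lower (-0.42). As large a ratio was found in 16.8% of all measured genes and in 7.20% of the bright tertile, where KRT80 lies. It is the keratin gene whose ratio was largest against the error at its level.

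KRT10, the type I keratin of differentiating epidermis, had 3 measured probe sets. The brightest read 10305 and 11918.8 (0.21), another 6087.4 and 7390.7 (0.28), and the last 4570.6 and 4581.2 (0.00). The mean of the 3 log2 ratios was 0.16. Their range of 0.00 to 0.28 shows how far readings assigned to KRT10 differed on the same pair of arrays. All 3 end in _s_at or _x_at, and whether they also read other transcripts was not tested. The probe sets that stand for KRT7, KRT8, KRT13 and KRT18 have such suffixes too. KRT1, which pairs with KRT10 in epidermis, was below the floor on both arrays, at 8.1 and 19.3. KRT9, the type I keratin of palm and sole, read 97 with the empty vector and 131.1 with SOX17 (0.43), and its lower value is close to the floor. KRT78 lay above the floor on the empty vector array alone, at 122.5 and 37.5, with a second probe set at 6.9 and 1.9. Its value was under 190 too, so it has no fold.

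Of 5 keratins of simple epithelia 3 were measured, with ratios close to 0. KRT8, the type II keratin of simple epithelia, read 6881.7 with the empty vector and 6402.1 with SOX17 (-0.10). KRT18, its type I partner, read 32299.1 and 29840.1 (-0.11). The ratios of this pair, whose genes are neighbours in the RefSeq order, differed by 0.01. Their probe sets end in _x_at, a suffix for probes that can also bind other transcripts, and RefSeq holds 52 pseudogenes named after KRT8 and 68 named after KRT18. KRT7, a type II keratin of glandular and transitional epithelia, read 1824.5 and 1901.1 (0.06) on its brightest probe set and 116.6 and 123 (0.08) on another. Its other 2 probe sets lay below the floor, at 53.7 and 76.8 and at 2.6 and 33.3. KRT19, a type I keratin made in many carcinomas, lay below the floor on both of its probe sets, at 3.9 and 2.1 on the first and 2.9 and 31 on the second. KRT20, an intestinal keratin, read 40.5 and 26.1, also below the floor.

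By type, 7 of 24 type I genes were measured, 5 above 0 and 2 below, with a median log2 ratio of 0.21. That median is the value of KRT10 on its brightest probe set. Of 20 type II genes 4 were measured, 2 above 0 and 2 below, with a median of -0.02. These are descriptions of few genes, and the difference between the types was not tested. Of all measured genes 54.6% lay above 0 and 45.4% below, with a median of 0.03.

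Hair, nail and follicle keratins were not measured on these arrays. Of 12 hair and nail keratins with a named probe set, and of 7 of the inner root sheath and companion layer, 0 reached the floor on both. KRT33B, a hair keratin, read 131.1 with the empty vector and 35.2 with SOX17, and is the 1 member of these groups above the floor on either array. In all, 30 keratin genes lay below the floor on both arrays on every probe set: KRT1, KRT2, KRT3, KRT12, KRT23, KRT24, KRT76, KRT77 and KRT79 of stratified epithelia, KRT19 and KRT20, the hair keratins KRT31, KRT32, KRT33A, KRT35, KRT36, KRT37, KRT38, KRT40, KRT83, KRT84 and KRT85, the follicle keratins KRT25, KRT27, KRT71, KRT72, KRT73, KRT74 and KRT75, and KRT222. Their 35 probe sets read from 0.8 to 78.9 on the empty vector array, with a median of 14.3, and from 1.7 to 88.5 on the SOX17 array, with a median of 19.3. Values there have no order, and a keratin gene made at a level under the floor would not be seen. KRT26, KRT28, KRT39, KRT81, KRT82 and KRT86 were not analysed here, as the annotation paired no probe set with them. KRT34 was left out because its 1 probe set is shared with another gene.

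**Figure D3:**
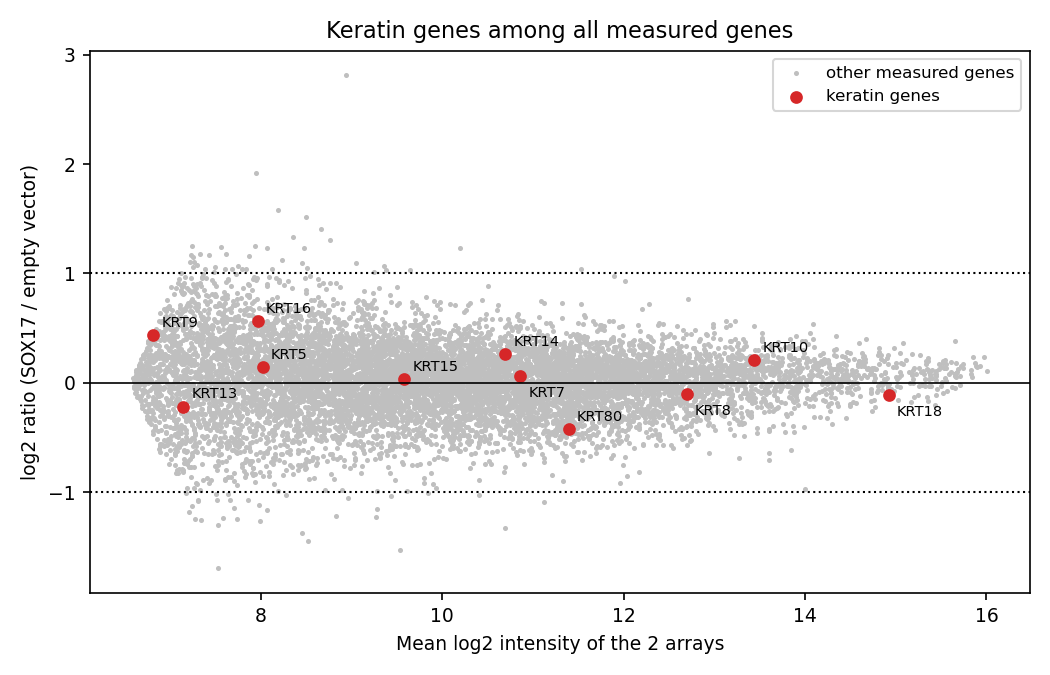
Log2 ratio against the mean log2 intensity of both arrays for every measured gene, with the 11 keratin genes in red and dotted lines at 2-fold. The keratin genes lie inside the cloud of other genes at every level, with KRT80 towards its lower side and KRT16 among the scattered genes of low intensity.

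Genes that anchor keratin filaments to desmosomes and hemidesmosomes, the junctions of epithelial cells with each other and with the matrix, had ratios on both sides of 0. Of 18 such linker genes that could be named 13 were measured, 4 above 0 and 9 below, while 54.6% of all measured genes lay above 0 and 45.4% below. Of the 13, 0 were past 1.5-fold in either direction, against 6.97% of all measured genes. The median log2 ratio of the list was -0.08, against 0.03 over all measured genes. That median is the value of DST, dystonin, on its brightest probe set, and the 6 measured probe sets of DST ran from -0.08 to 0.89. ITGA6, the integrin chain of hemidesmosomes, read 7479 with the empty vector and 5392.9 with SOX17 (-0.47), and its 2 probe sets ran from -0.47 to -0.21. PKP1, a plakophilin of stratified epithelia, read 653.9 and 471.7 (-0.47), with -0.44 on its other probe set. DSC2, a desmosomal cadherin, read 7239.4 and 5399.9 (-0.42), and its 4 probe sets ran from -0.71 to -0.21, all below 0. PPL, the plakin periplakin, read 1529.5 and 1858.6 (0.28). DSP, desmoplakin, the main link from keratin to the desmosome and named here after its values were seen, read 18745.6 and 16234.9 (-0.21).

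Of the plakin linkers, PLEC and EVPL lay above the floor on 1 array only, and they are named after their values were seen. PLEC, plectin, read 61.8 with the empty vector and 223.6 with SOX17, at least 2.35-fold higher against the floor of 95. EVPL, envoplakin, read 223.6 and 75.8, at least 2.35-fold lower with SOX17. Among genes under the floor with the empty vector 0.343% had such a bound, and among those under it with SOX17 0.222%. Both genes rest on 1 probe set above the floor.

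Other intermediate filament genes gave a median log2 ratio of 0.09 over 5 measured members of 15, against 0.03 over all measured genes. BFSP1, a filament gene of the lens, read 369.3 and 475.5 (0.36), and LMNB2, a nuclear lamin, read 1096.7 and 972.6 (-0.17). NEFL, a neurofilament, read 6234.7 and 6884.1 (0.14), and its 3 probe sets ran from 0.09 to 0.38. LMNA, the gene of the A-type lamins, read 3637.9 and 3873.7 (0.09), and its 5 measured probe sets ran from 0.09 to 0.31. VIM, the vimentin of mesenchymal cells, was not measured, at 105.7 with the empty vector and 49.8 with SOX17 on the brighter of its 2 probe sets. SYNM read 96.7 and 81.7, also at the floor with the empty vector alone. DES went the other way, at 27.3 and 129.2 on the brighter of its 2 probe sets. None of these values reached 2 times the floor (190), so no direction or fold is given.

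Of 7 genes whose proteins bind keratins or act on them, all were measured, 5 above 0 and 2 below (median 0.07). Over the whole series 50.7% of genes were measured. Of the measured ones 54.6% lay above 0 and 45.4% below, with a median of 0.03. FBF1 had a log2 ratio of 0.29, TRADD, an adaptor of the TNF receptor, 0.25, and the kinase gene CSNK1A1 0.13. The 12 measured probe sets of CSNK1A1 ran from -1.10 to 0.23, and the 2 of TRADD from 0.25 to 0.82. HNRNPK, an RNA-binding protein, had a log2 ratio of 0.07, and its 2 probe sets ran from -0.13 to 0.07. Of 8 genes that bundle or crosslink keratins in the cornified layer, filaggrin (FLG) and transglutaminase 1 (TGM1) among them, 0 were measured, and their intensities lay between 0.9 and 46.1. A list of 34 genes took every symbol of KRTAP followed by digits. It holds keratin-associated proteins, the matrix partners of hair keratins, and the antisense gene KRTAP5-AS1. Of the 34, 2 were measured, KRTAP4-1 (103.4 and 123.6) and KRTAP4-8 (98.2 and 128.2), both close to the floor.

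**Figure D4:**
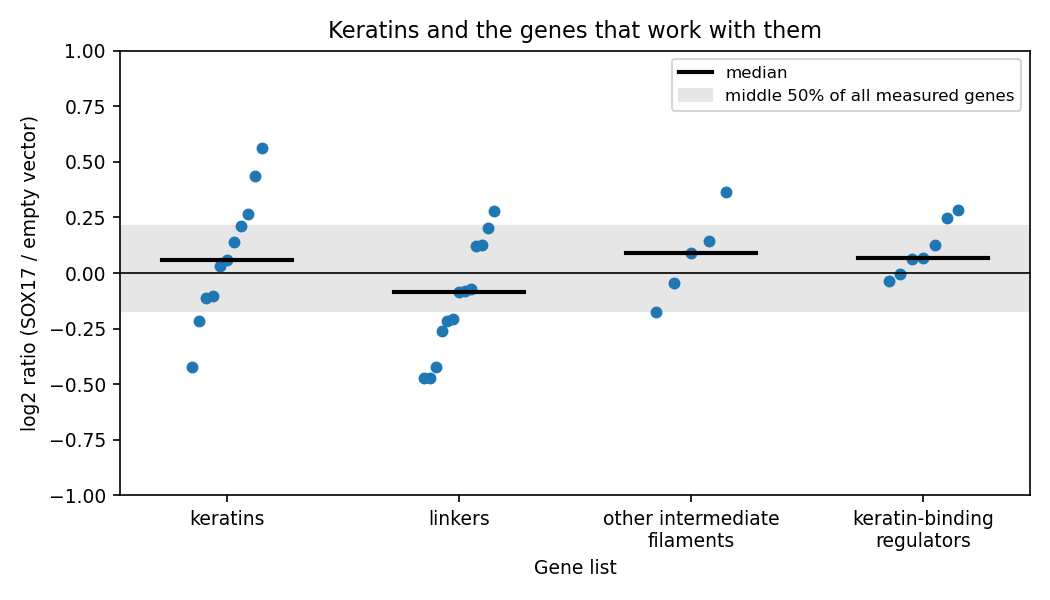
Log2 ratios of the measured genes of 4 lists (points, sorted within each list) with the list's median (black bar); the grey band holds the middle 50% of all measured genes, from -0.17 to 0.21. The medians of keratins (0.06), linkers (-0.08), other intermediate filaments (0.09) and keratin-binding regulators (0.07) all lie inside the band.

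The labelled cell type was checked on marker lists. Of 6 squamous markers that could be named 5 were measured (DSG3, PERP, SFN, TRIM29 and PKP1), with CLCA2 below the floor and TP63 not analysed here. Of these 5, 3 had a log2 ratio above 0 and 2 below, DSG3 (-0.26) and PKP1 (-0.47). Of all measured genes 54.6% lay above 0 and 45.4% below. The 2 measured probe sets of DSG3 ran from -0.26 to 0.01, and the 3 of PERP from -0.15 to 0.18. Those of TRIM29 ran from 0.21 to 0.87, those of SFN from 0.06 to 0.25 and those of PKP1 from -0.47 to -0.44. SFN read 50352.6 with the empty vector and 52641.3 with SOX17, and PERP read 38464.9 and 41187.8. Of 6 glandular markers 0 were measured, and 5 lay below the floor on both arrays on every probe set. VIL1, the villin of intestinal epithelium, read 71.5 with the empty vector and 209.4 with SOX17, at least 2.20-fold higher against the floor. These values are of 1 of its 4 probe sets, of which 0 reached the floor on both arrays. Among genes under the floor with the empty vector 0.343% had such a bound. The part of VIL1 in the keratin ratios was not tested. Of 7 mesenchymal markers COL1A1 was measured, and of 5 leukocyte markers 0 were. The 24 probe sets of poly-A control transcripts, added before labelling, were all higher on the SOX17 array, with a median log2 ratio of 0.57, and their part in the keratin ratios was not tested. The probe sets of SOX17 itself read 4.5 and 83.8, and 19.1 and 6.5, all below the floor, so the labels could not be checked on it.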

How the data were processed

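Total RNA of 2 transfected cultures was labelled as biotinylated cRNA for Affymetrix expression arrays, per the labels' protocols. The values are linear intensities that the authors computed with GCOS and deposited (per the submitters' processing notes), 1 for each probe set on each array. Algorithm, version and detection calls of GCOS are not given in the sources used here. Both arrays had a mean of 500.1 without the lowest and highest 2% of values, so they had been scaled alike, and a change shared by all transcripts would not show. Precision is limited by having 1 array per group. Of 54675 probe sets, 62 were controls, 41091 were paired with 1 gene, 1801 with several and 11721 with none. No keratin symbol needed an update against RefSeq (0 of 44 genes).

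The members and lists were chosen with earlier results of these data known. Named are all keratin genes, up to 4 measured members of each other list by size of ratio, and SOX17. Cell type markers, and list members below the floor such as VIM, SYNM, DES, FLG, TGM1, PLEC and EVPL, are named outside that rule, after their values were seen. A gene that reached the floor on 1 array only, by a factor of 2, got a lower bound. Alternatives covered scaling (median centring, quantile normalization, loess with span 0.4), a floor at percentile 50 or 75 or no floor, averaging a gene's probe sets, omitting those with the suffix _x_at or _s_at, and thresholds of 1.5-fold and 3-fold. Python 3.11.15, numpy 2.4.6, pandas 2.3.3 and statsmodels 0.14.6 were used. The count past 2-fold was also run on simulated data with 3-fold changes in randomly picked genes. Those changes are larger than any measured keratin ratio here, so that run does not bear on the keratin counts.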

Additional observations from a re-analysis of the deposited data

How the results depend on the processing

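No measured keratin gene passed 1.5-fold, 2-fold or 3-fold, and none passed 2-fold under any scaling, with probe sets averaged, with the suffixes _x_at and _s_at left out, or with floors at percentile 50 and 75. With no floor all 44 keratin genes entered, 25 above 0 and 19 below, and 9 were then 2-fold higher and 7 2-fold lower, each with a value below the floor of 95 on at least 1 array. Without a floor the median of other intermediate filament genes was -0.24. A floor at percentile 75 left 7 keratin genes, 4 of them above 0. Leaving out those suffixes also left 7, of which 1 was below 0 (KRT80), and the median of linker genes was then -0.21. Over 80 recomputed ratios of single keratin genes, the largest move was 0.08, and 1 changed sign (KRT15 under median centring). Many of the 80 could not move. A changed floor leaves the ratio of a gene that stays in as it was. Averaging cannot alter the 9 genes with 1 measured probe set. The number 80 is therefore no measure of how stable the ratios are. No paired analysis was possible because each group has 1 array and the groups share 1 replicate number. With 1 array per group no replicate could be left out. Depth on arrays is signal over background, and 33 of the 44 keratin genes were too dim on at least 1 array for a ratio.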

Other observations

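Some probe sets carry keratin names outside the family as defined here. The antisense gene KRT10-AS1 read 2652.2 with the empty vector and 2664.1 with SOX17 (log2 ratio 0.01). The pseudogene KRT8P12 read 292.1 and 286.5 (-0.03) on one probe set and 120.1 and 83.7 on another. KRTCAP2, a subunit of the oligosaccharyltransferase that bears a keratinocyte name, read 10917.7 and 11103.7 (0.02), and KRTCAP3 read 388.7 and 472.3 (0.28). The probe set shared by KRT34 and LOC100653049 read 194.4 with the empty vector and 23.3 with SOX17, and is assigned to neither gene.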
